A study of Mus musculus with 12 samples.

Results

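The methyl-CpG binding protein genes considered here are Mbd1, Mbd2, Mbd3, Mbd4, Mbd5, Mbd6, Zbtb33, Zbtb4 and Zbtb38. Every probe set that the array annotation gives to exactly 1 of these 9 genes was taken, which yielded 21 of the 45101 probe sets of the mouse Affymetrix 430 2.0 array. They cover 8 of the 9 genes, since no probe set is annotated to Mbd5 alone. Mbd1 had 5 probe sets, Zbtb4 had 4, Mbd4 and Zbtb38 had 3 each, Mbd2 and Zbtb33 had 2 each, and Mbd3 and Mbd6 had 1 each. A further probe set shared by Zbtb38 and another gene was left out. Of the 21, 20 passed the filter on low values and were tested, and Zbtb33 1421094_at did not (5.0 to 8.8 on all 12 arrays).

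The study hybridised 12 arrays in 4 groups of 3. The first group held MBD2-/- leukaemia cells, sorted as GFP+ cells from the bone marrow of recipients of MBD2-deleted, Notch1-driven T-cell acute lymphoblastic leukaemia (T-ALL). The second held the same sort from recipients of MBD2 wild-type leukaemia. The remaining groups held CD4+CD8+ double-positive (DP) thymocytes, sorted from the thymus of steady-state MBD2-/- mice and of MBD2 wild-type mice, without transplantation. Strain, sex, age and how Notch1 was delivered are unstated in the sources used here, as is whether the 3 leukaemia arrays of a group came from separate founding leukaemias. P-values therefore measure only the spread between these samples. The number of arrays limits the precision. Values are the deposited intensities, in arbitrary units on a linear scale. Differences are log2 differences of (intensity + 16) from limma, with their standard error (SE), and a probe set was called at a Benjamini-Hochberg adjusted p under 0.05 over all 35465 probe sets tested. In bulk samples like these, fewer cells of a type and less RNA per cell cannot be told apart.

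DNA methylation at CG dinucleotides is read by proteins of distinct families. The MBD proteins share a methyl-CpG binding domain. MBD2 recruits the nucleosome remodelling and deacetylase complex (NuRD) to methylated DNA, MBD3 is the alternative subunit of the same complex and in mammals binds methylated DNA poorly, MBD1 recruits a histone H3 lysine methyltransferase, and MBD4 is a glycosylase that removes thymine left when methylcytosine is deaminated. MBD5 and MBD6 carry an MBD-like domain that does not bind methylated DNA, and join the PR-DUB histone deubiquitinase complex. ZBTB33 (Kaiso), ZBTB4 and ZBTB38 form the second family, BTB-domain zinc fingers that bind methylated CG through their fingers and act mostly as repressors. In mice lacking MBD2, T-cell differentiation is known to be altered while the animals are viable.

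The samples differed in ways that touch the results below. Added poly-A control transcripts gave signal on 5 arrays (MBD2-/- T-ALL replicate 1, wild-type T-ALL replicates 1 and 2, and wild-type DP replicates 1 and 2), with a dap intensity of 752 to 3524, and gave none on the other 7 arrays (4.25 to 6.26). The highest of these 24 control probe sets on the arrays without signal was 35.3, used here as the background level. The Gapdh 3′ to 5′ intensity ratio, a measure of RNA integrity, was 0.964 to 1.139 on 6 arrays and 2.004 to 3.682 on the other 6, with arrays of every group on both sides. Arrays with the low ratio and arrays with poly-A signal were the same on 11 of the 12, MBD2-/- DP replicate 3 (1.116, without signal) being the exception, so these 2 differences cannot be told apart here. Xist averaged 36.5 ± 4.36 in MBD2-/- T-ALL and 4193 ± 543 in wild-type T-ALL (SD, n = 3 each), against 39.7 and 35.4 in MBD2-/- and wild-type DP cells, so the sex of the cells cannot be told apart from genotype between the T-ALL groups, from cell type between the wild-type groups, or from the difference of the genotype effects. This holds for every difference below that involves wild-type T-ALL, whether the level was lowest or highest there. All 7 measured T-lineage markers were above background in every group, summing to 18550 to 22810 in MBD2-/- T-ALL, 22190 to 26940 in wild-type T-ALL, 37310 to 45110 in MBD2-/- DP and 40030 to 47290 in wild-type DP cells. Of these 7, 6 were called lower in MBD2-/- T-ALL than in MBD2-/- DP cells (13.4% of all probe sets were). In wild-type T-ALL 5 were called lower than in wild-type DP cells (14.4% of all). The 8 DP thymocyte markers were all above background in both DP groups, summing to 40250 to 53610. They summed to 3785 to 5185 in MBD2-/- T-ALL, with Rag1 and Rag2 at background, and to 10630 to 12340 in wild-type T-ALL, with Rag2 at background. In wild-type T-ALL 7 were called lower and 1 higher than in wild-type DP cells (28.6% of all probe sets were called). All 8 were lower in MBD2-/- T-ALL than in MBD2-/- DP cells (27.4% of all called). Between T-ALL genotypes 5 were lower and 1 higher in MBD2-/- cells (12.3% of all called). The 8 measured monocyte, macrophage and neutrophil markers summed to 254.8 to 709 in MBD2-/- T-ALL and 873 to 1726 in wild-type T-ALL, with Cd14, Itgam and Mpo at background in all groups. The 4 measured erythroid markers summed to 184.7 to 226.1 in MBD2-/- T-ALL, 225.5 to 252.1 in wild-type T-ALL, 90.89 to 109 in MBD2-/- DP and 89.58 to 115.4 in wild-type DP cells, with Hba-a1 at background throughout. The 6 measured B-cell markers summed to 160.5 to 177.4, 126.7 to 149.2, 294.3 to 305.6 and 330.5 to 335.1 in the same 4 groups, with Cd79a, Ms4a1, Pax5 and Ebf1 at background. The part of the sex-linked and marker differences in the results below was not tested.

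Mbd2, the deleted gene, was low on every MBD2-/- array and high on every wild-type array. Probe set 1417165_at had intensities of 41.4, 55.7 and 66.0 in MBD2-/- T-ALL, against 957.1, 742.3 and 761.9 in wild-type T-ALL. It had 67.6, 84.3 and 64.4 in MBD2-/- DP cells, against 1372, 992.6 and 1042.5 in wild-type DP cells. The genotypes did not overlap in either cell type, and all 6 MBD2-/- values stayed above the background level of 35.3. The log2 difference was −3.58 in T-ALL (SE 0.17, limma adjusted p = 6.4e-05) and −3.70 in DP cells (SE 0.16, adjusted p = 0.00358). The DP call was lost without MBD2-/- replicate 1 or replicate 3, with an adjusted p of up to 0.0887, and in a fit blocked by poly-A set (adjusted p = 0.068), the log2 difference staying at or below −3.59 in these fits. The difference between the T-ALL and DP effects was 0.12, with a 95% interval of −0.41 to 0.65 (adjusted p = 0.846).

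The second Mbd2 probe set, 1425803_a_at, varied far more among the wild-type arrays. It had 10.7, 8.6 and 17.1 in MBD2-/- T-ALL, against 617.8, 397.2 and 96.6 in wild-type T-ALL. It had 21.8, 12.4 and 13.0 in MBD2-/- DP cells, against 453.6, 301.4 and 110.2 in wild-type DP cells. All 6 MBD2-/- values were under the background level, so the fold is set in part by the constant 16. The log2 difference was −3.47 in T-ALL (SE 0.60, adjusted p = 0.0125), a call lost without wild-type T-ALL replicate 2 (adjusted p = 0.0642), and −3.08 in DP cells (SE 0.45, adjusted p = 0.413). In both cell types the lowest wild-type value was the third replicate, the wild-type array with the high Gapdh ratio (2.482 in T-ALL and 3.682 in DP cells) and without poly-A signal. The other 4 wild-type arrays had Gapdh ratios of 0.969 to 1.139 and poly-A signal. Probe set 1417165_at showed no such drop in these arrays, as the plot against the Gapdh ratio shows. Where either probe set lies relative to the deleted part of Mbd2 is not given in the sources used here.

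**Figure D1:**
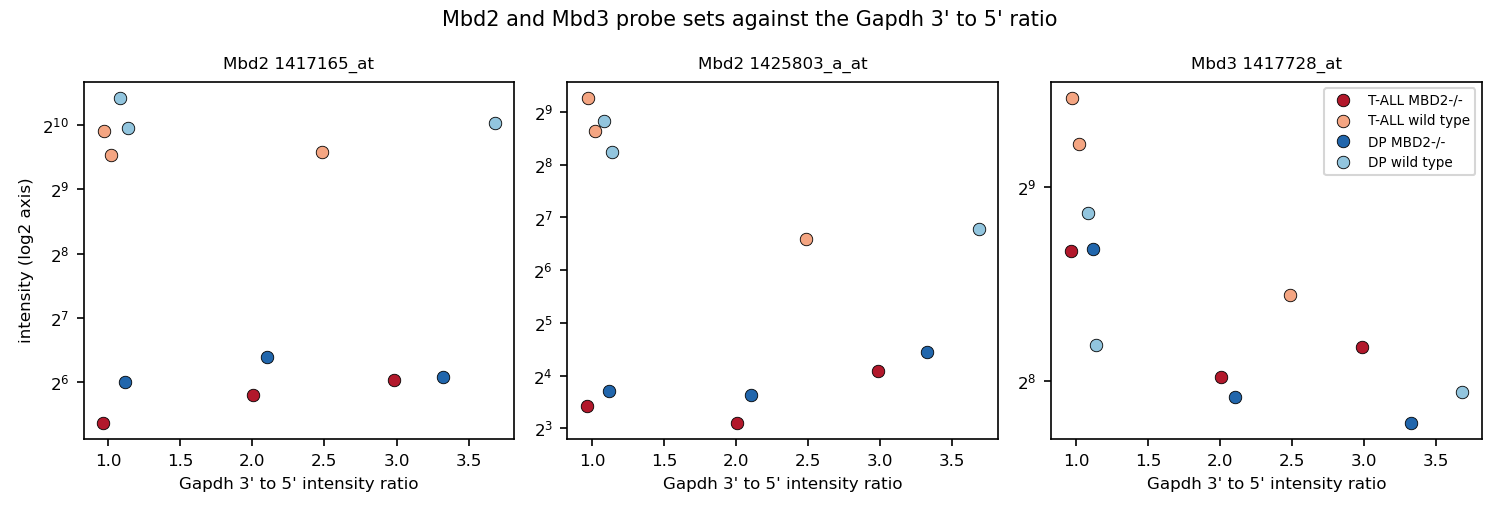
Intensity (log2 axis) of the Mbd2 probe sets 1417165_at and 1425803_a_at and of Mbd3 1417728_at against the Gapdh 3′ to 5′ intensity ratio, 1 point per array, coloured by group. For 1425803_a_at the wild-type arrays with ratios of 2.482 and 3.682 lie at 96.6 and 110.2, below the other 4 wild-type arrays (301.4 to 617.8), and the 6 arrays with a ratio over 2 include the lowest Mbd3 values.

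Mbd3, which encodes the alternative to MBD2 in NuRD, was not called in any comparison. It had intensities of 406.9, 259.2 and 288.5 in MBD2-/- T-ALL, against 705.5, 597.0 and 347.5 in wild-type T-ALL. The groups overlapped, and within each the arrays with the higher Gapdh ratio, which were also those without poly-A signal, were the lower ones. The log2 difference was −0.73 with a 95% interval of −1.41 to −0.05 (adjusted p = 0.171, and 0.043 with the replicate number as a block). DP cells had 220.0, 241.5 and 409.7 without MBD2, against 466.5, 291.1 and 246.0 in wild type (log2 −0.20, interval −0.91 to 0.52). Over all 12 arrays, the 6 arrays with a Gapdh ratio over 2 ranged from 220.0 to 347.5 and the other 6 from 291.1 to 705.5. With the Gapdh ratio as a covariate the T-ALL difference was −0.53 (adjusted p = 0.0808). Between wild-type T-ALL and wild-type DP cells the log2 difference was 0.68 (adjusted p = 0.172, and 0.0103 with the block).

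**Figure D2:**
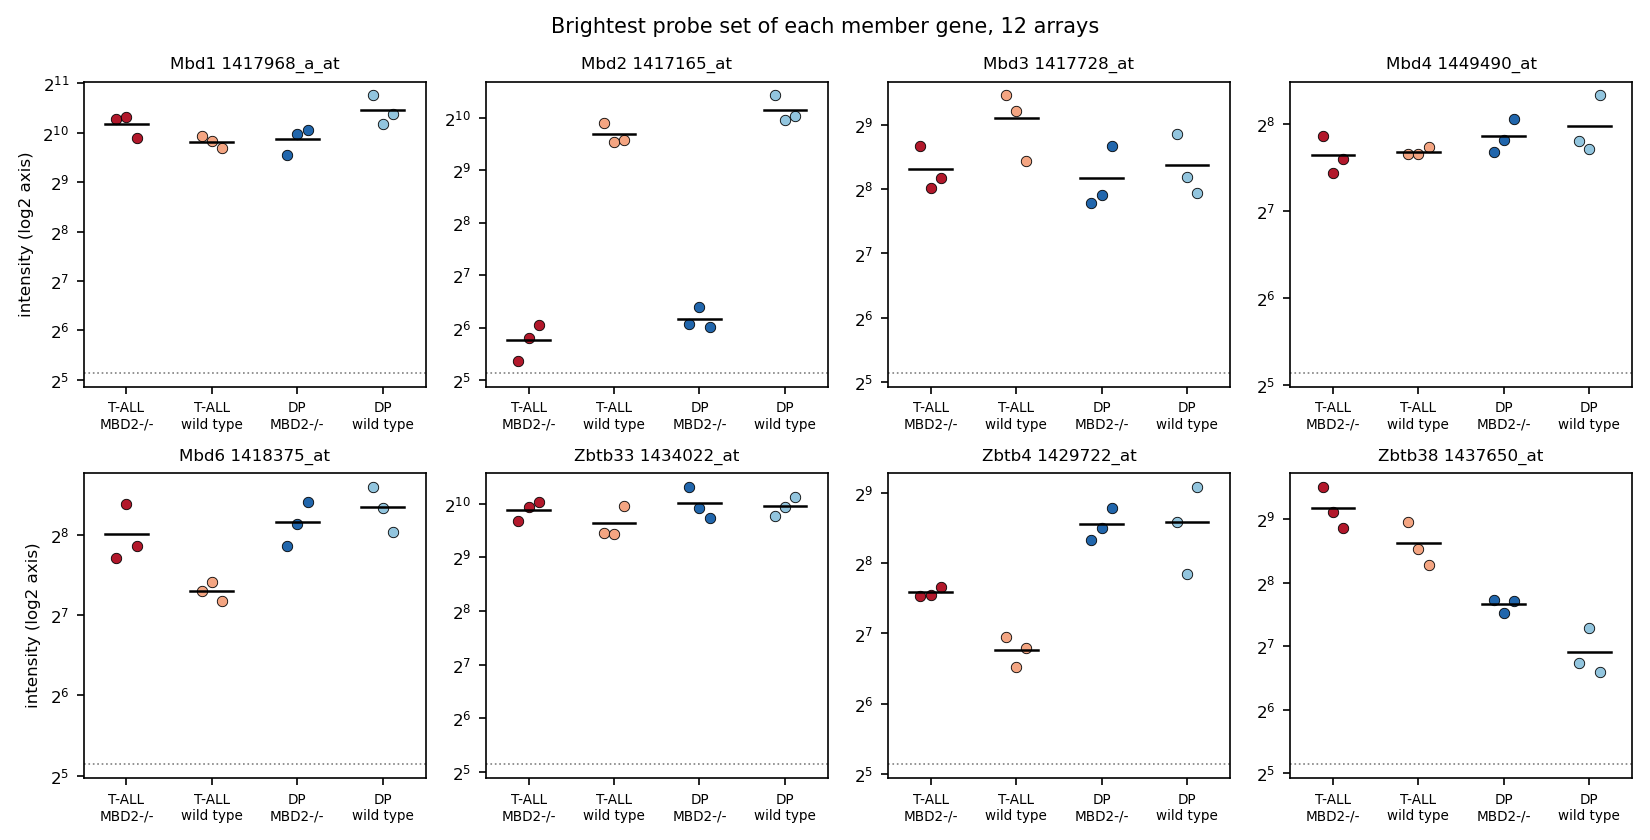
Intensity (log2 axis, arbitrary units) of the brightest probe set of each of the 8 measured genes on the 12 arrays, with MBD2-/- and wild-type T-ALL on the left and MBD2-/- and wild-type DP cells on the right of each panel. Points are arrays, horizontal lines the group means of 3 arrays and the dotted line the background level of 35.3. Mbd2 separates by genotype, Zbtb38 and Zbtb4 separate by cell type in opposite directions, and Mbd4 and Zbtb33 overlap across groups.

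In the T-ALL comparison of genotypes, 4 of the 20 member probe sets were called, 20.0%, where 12.3% of all tested probe sets were. They were the 2 Mbd2 probe sets, both lower (4.85% of all were lower), and 2 Zbtb4 probe sets, both higher (7.49% of all were higher). Without Mbd2, the deleted gene, 2 of 18 were called, 11.1%. The MBD2-/- and wild-type T-ALL arrays did not overlap for 5 member probe sets, the 2 of Mbd2 among them, against 30.2% of all probe sets. The median log2 difference was 0.13 over the 20 probe sets, or 0.29 over the 18 that are not Mbd2, beside −0.05 over all probe sets. With the replicate number as a block, 7 were called, where 19.2% of all probe sets were. The additional ones were Mbd3 (adjusted p = 0.043), Mbd6 (0.023) and Zbtb38 1437650_at (0.0127). The labels do not state that equal replicate numbers are pairs. In the T-ALL groups, arrays numbered 1 shared a low Gapdh ratio and poly-A signal, and arrays numbered 3 shared neither. The block therefore cannot be fully told apart from that technical difference. In the DP comparison of genotypes, 1 of 20 was called (Mbd2 1417165_at), 5.0%, where 0.0113% of all probe sets were. There 5 of 20 did not overlap, against 8.35% of all. These 5 included the 2 probe sets of the deleted gene Mbd2, the others being Mbd1 1417968_a_at, Zbtb38 1437650_at and Zbtb38 1434687_at. None of the 18 probe sets that are not Mbd2 was called in DP cells by limma (adjusted p of 0.996 to 0.999). Of the 18, 3 had an unadjusted p under 0.05, against 4.32% of all probe sets. These comparisons share no arrays with each other, but each shares arrays with the comparisons between cell types given below.

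**Figure D3:**
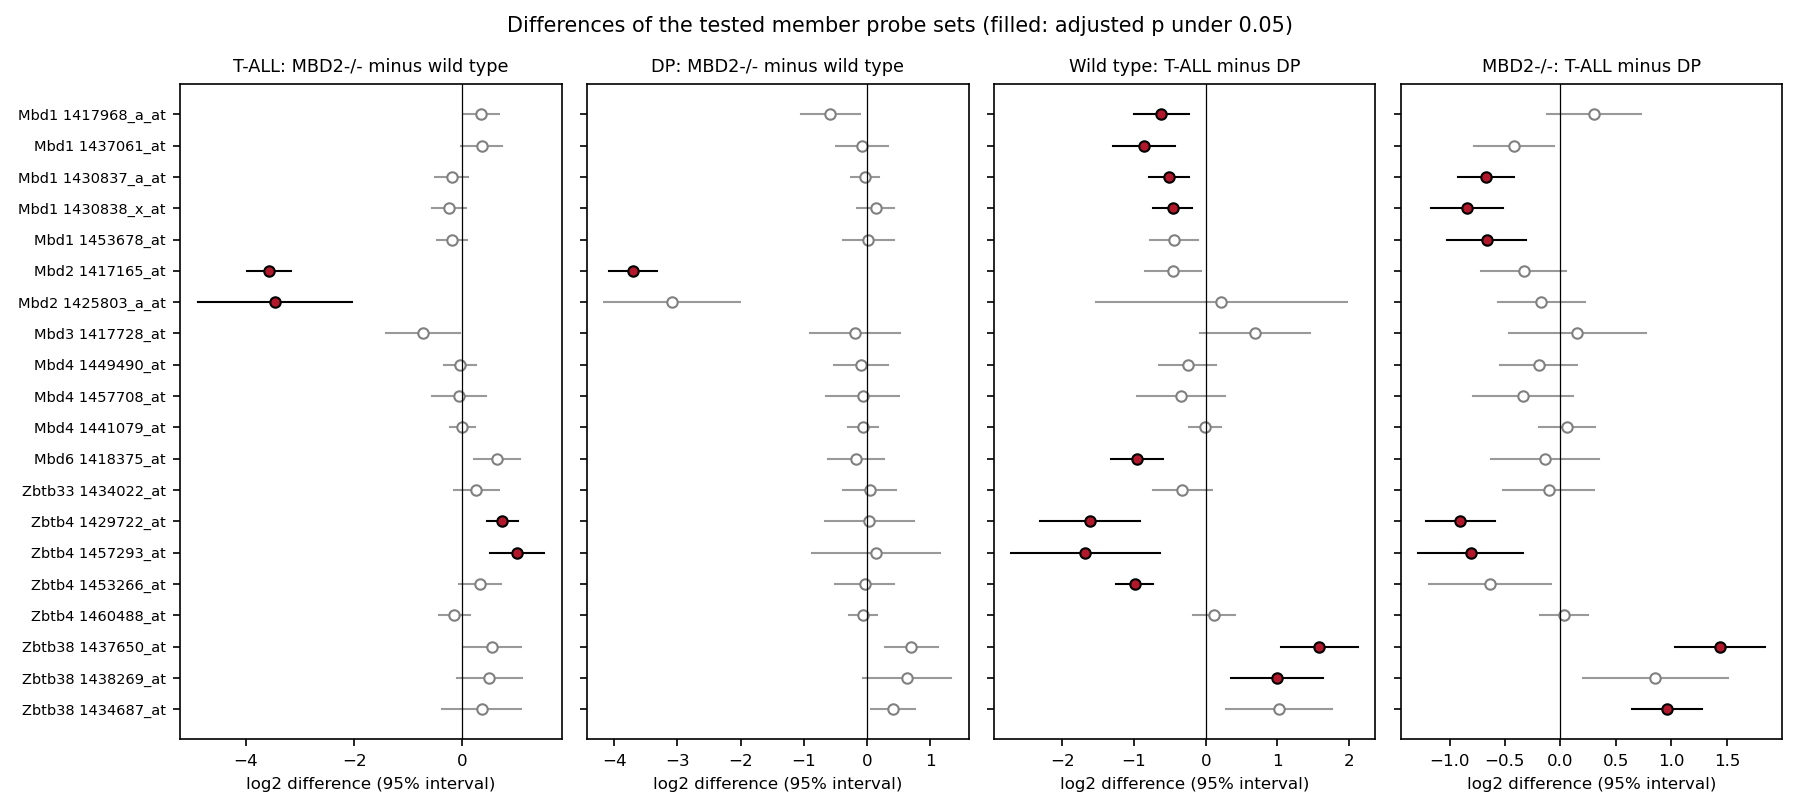
Log2 differences with 95% intervals for the 20 tested member probe sets in 4 comparisons: MBD2-/- minus wild type in T-ALL, MBD2-/- minus wild type in DP cells, T-ALL minus DP in wild type and T-ALL minus DP in MBD2-/-. Filled points have an adjusted p under 0.05; the panels use different scales and share arrays, and the 4, 1, 10 and 7 filled points are the calls counted in the text.

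Wild-type T-ALL against wild-type DP gave 10 of 20 called, 50.0%, where 28.6% of all probe sets were, with 2 higher (14.3% of all) and 8 lower (14.4% of all). The wild-type T-ALL and DP arrays did not overlap for 13 of 20, against 43.3% of all. The median log2 difference was −0.39, beside 0.02 over all probe sets. MBD2-/- T-ALL against MBD2-/- DP gave 7 of 20 called, 35.0%, where 27.4% of all were, with 2 higher (14.0% of all) and 5 lower (13.4% of all), and 9 of 20 did not overlap, against 41.7%. The higher ones were Zbtb38 probe sets in both comparisons, and the lower ones were of Mbd1 and Zbtb4 in both, with Mbd6 in wild type alone. In MBD2-/- cells the Mbd1 calls were of the dim 1430837_a_at, 1430838_x_at and 1453678_at. The brighter 1417968_a_at (log2 0.30, adjusted p = 0.277) and 1437061_at (−0.42, adjusted p = 0.0854) were not called there. Several probe sets measure 1 gene, so the 10 and 7 calls cover 4 genes in wild type and 3 in MBD2-/- cells.

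Zbtb4 encodes a BTB zinc finger that represses genes including that of the cell-cycle inhibitor p21, and its level was lowest in wild-type T-ALL. Probe set 1429722_at had intensities of 185.6, 186.7 and 202.5 in MBD2-/- T-ALL, against 123.7, 91.7 and 110.9 in wild-type T-ALL. It had 322.6, 361.5 and 440.1 in MBD2-/- DP cells, against 382.7, 228.9 and 541.8 in wild-type DP cells. Every T-ALL array lay below every DP array, and within T-ALL every MBD2-/- array lay above every wild-type array, whereas the DP genotypes overlapped. The order was therefore wild-type DP and MBD2-/- DP, which did not differ beyond their spread, then MBD2-/- T-ALL, then wild-type T-ALL. Zbtb4 was higher in MBD2-/- than in wild-type T-ALL by log2 0.74 (SE 0.12, limma adjusted p = 0.0102). It was lower in T-ALL than in DP cells by log2 −1.61 in wild type (SE 0.29, adjusted p = 0.00742) and by −0.90 in MBD2-/- cells (SE 0.13, adjusted p = 0.00267). These 3 calls passed without each array in turn.

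The promoter of Zbtb4 is shown because Zbtb4 was the only member beside Mbd2 called between the T-ALL genotypes without the replicate block and because CG is the dinucleotide these proteins read. It comes from RefSeq (GRCm38.p6, chr11:69765662-69765961, plus strand, 250 bases before to 50 bases after the annotated start), with each CG in capitals.
Zbtb4 promoter: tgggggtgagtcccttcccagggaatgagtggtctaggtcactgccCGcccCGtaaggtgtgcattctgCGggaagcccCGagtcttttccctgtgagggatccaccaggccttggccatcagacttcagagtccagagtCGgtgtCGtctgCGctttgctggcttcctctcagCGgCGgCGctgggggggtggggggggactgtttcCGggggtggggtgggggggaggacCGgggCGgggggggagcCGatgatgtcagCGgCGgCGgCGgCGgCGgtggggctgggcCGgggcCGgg
It holds 22 CG dinucleotides, more than 76.9% of the 32841 promoters of the same length in the table, whose median is 7. The arrays measure neither methylation nor binding at this promoter.

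The other Zbtb4 probe sets repeated this order in part. Probe set 1457293_at had 121.9, 115.3 and 194.4 in MBD2-/- T-ALL, against 65.4, 49.0 and 71.4 in wild-type T-ALL. In DP cells it had 260.3, 226.0 and 291.3 without MBD2, against 188.7, 130.6 and 487.8 in wild type, where replicate 3 was far above the others. The T-ALL genotypes did not overlap (log2 1.01, SE 0.21, adjusted p = 0.0257), but the call was lost without wild-type T-ALL replicate 1 or 2, with an adjusted p of up to 0.104. The wild-type comparison of cell types gave −1.68 (adjusted p = 0.0285) and the MBD2-/- one −0.81 (adjusted p = 0.0233), each lost without any of 4 single arrays, at up to 0.104 and 0.0772. For wild type these were the 3 T-ALL arrays and DP replicate 1, and for MBD2-/- they were T-ALL replicates 1 and 2 and DP replicates 1 and 3.

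Probe set 1453266_at, designed from the same cDNA record as 1429722_at, had 68.4, 40.6 and 52.1 in MBD2-/- T-ALL, against 37.7, 35.5 and 44.6 in wild-type T-ALL. Its values overlapped between genotypes (log2 0.32, adjusted p = 0.288). It had 62.6, 118.0 and 99.3 in MBD2-/- DP cells, against 98.5, 87.6 and 95.1 in wild-type DP cells, and was lower in wild-type T-ALL than in wild-type DP by log2 −0.99 (SE 0.11, adjusted p = 0.000862). Between the MBD2-/- groups it gave −0.63 (adjusted p = 0.0885). The last Zbtb4 probe set, 1460488_at, lay at 30.8 to 46.4 on all arrays, at or near background, and was not called in any comparison. Within poly-A sets the T-ALL genotype difference of 1429722_at kept its size, at log2 0.72 among the arrays with poly-A signal (1 MBD2-/- and 2 wild-type) and 0.73 among those without it (2 and 1). The test of whether the genotype effect differs between T-ALL and DP cells gave 0.71, with an interval of −0.05 to 1.47 (adjusted p = 0.295), so the effects were not shown to differ.

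**Figure D4:**
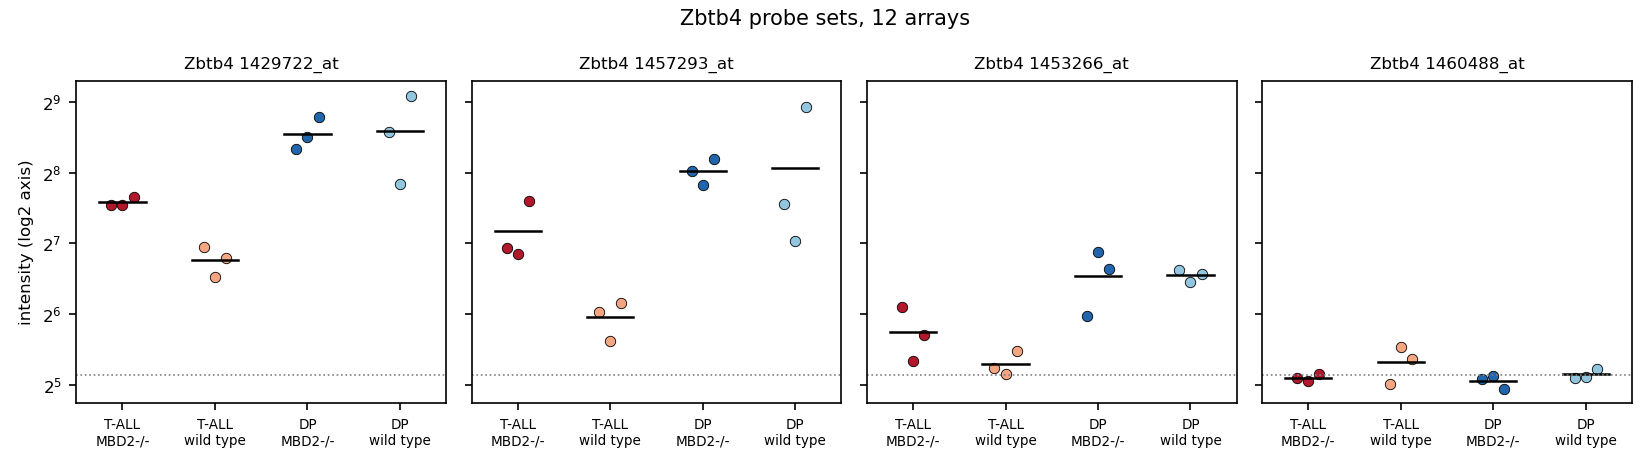
Intensity (log2 axis) of the 4 Zbtb4 probe sets on the 12 arrays, with lines at the means of 3 arrays and a dotted line at the background level of 35.3. In 1429722_at and 1457293_at the MBD2-/- T-ALL arrays (185.6 to 202.5 and 115.3 to 194.4) lie between wild-type T-ALL and the MBD2-/- DP arrays, and 1460488_at stays near background in all groups.

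Zbtb38 encodes a BTB zinc finger that binds single methylated CG sites and can repress or activate, and it ran the other way, higher in T-ALL than in DP cells. Probe set 1437650_at had intensities of 729.1, 553.8 and 463.4 in MBD2-/- T-ALL, against 497.0, 371.3 and 310.8 in wild-type T-ALL. It had 211.7, 184.3 and 210.0 in MBD2-/- DP cells, against 106.6, 157.1 and 97.0 in wild-type DP cells. All T-ALL arrays lay above all DP arrays, the DP genotypes did not overlap, and the T-ALL genotypes overlapped. Relative to DP cells, T-ALL was higher by log2 1.59 in wild type (SE 0.22, adjusted p = 0.00267) and by 1.43 in MBD2-/- cells (SE 0.17, adjusted p = 0.0011), and both calls passed without each array in turn. All 3 probe sets had group means in the same order, MBD2-/- T-ALL, wild-type T-ALL, MBD2-/- DP and wild-type DP. Of the neighbours in this order, the wild-type T-ALL and MBD2-/- DP arrays, and the MBD2-/- DP and wild-type DP arrays, were apart for 1437650_at.

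Between genotypes, Zbtb38 1437650_at passed in neither cell type. In T-ALL the log2 difference was 0.55 (SE 0.22, adjusted p = 0.181). It passed with the replicate block (adjusted p = 0.0127), in a fit blocked by poly-A set (0.71, adjusted p = 0.0305) and with the Gapdh ratio as a covariate (0.70, adjusted p = 0.016). In DP cells it was 0.70 (interval 0.29 to 1.12, adjusted p = 0.996), with all 3 MBD2-/- arrays above all 3 wild-type arrays. The difference between these genotype effects was −0.15, with an interval of −0.81 to 0.51 (adjusted p = 0.848). Within each T-ALL group the arrays ran down as the Gapdh ratio ran up. The values 729.1, 553.8 and 463.4 in MBD2-/- T-ALL stood at ratios of 0.964, 2.004 and 2.982, and 497.0, 371.3 and 310.8 in wild-type T-ALL at 0.969, 1.017 and 2.482.

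The other Zbtb38 probe sets were dimmer. Probe set 1438269_at had 91.1, 95.6 and 152.6 in MBD2-/- T-ALL, against 92.6, 50.1 and 83.8 in wild-type T-ALL. It had 81.1, 53.9 and 34.3 in MBD2-/- DP cells, against 19.5, 25.4 and 46.1 in wild-type DP cells, of which the last 3 include 2 under background. It was higher in wild-type T-ALL than in wild-type DP (log2 0.99, SE 0.27, adjusted p = 0.0331), a call lost without wild-type T-ALL replicate 1 or 3 or wild-type DP replicate 1 or 2 (up to 0.11), and the MBD2-/- comparison gave 0.85 (adjusted p = 0.0601). Probe set 1434687_at had 59.5, 48.0 and 48.0 in MBD2-/- T-ALL, against 17.9, 36.9 and 66.0 in wild-type T-ALL. All 6 DP values were under background, 16.8, 24.2 and 15.7 without MBD2 and 8.7, 14.4 and 7.5 in wild type, so the fold is set in part by the added constant. T-ALL was higher than DP by log2 0.96 in MBD2-/- cells (SE 0.13, adjusted p = 0.0021) and by 1.02 in wild type (adjusted p = 0.0505, and 0.0286 with the block).

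**Figure D5:**
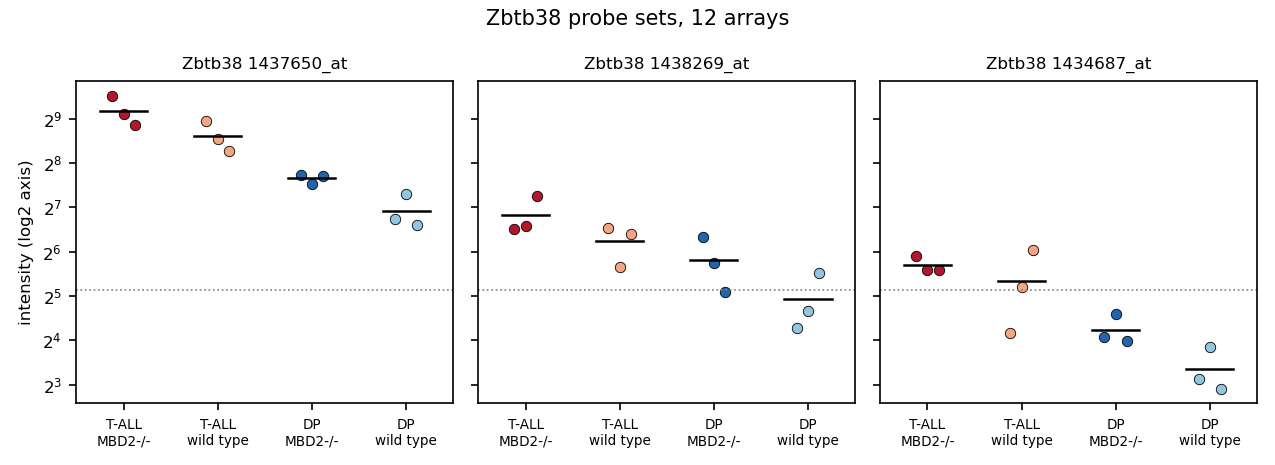
Intensity (log2 axis) of the 3 Zbtb38 probe sets on the 12 arrays, with lines at the means of 3 arrays and a dotted line at the background level of 35.3. The group means fall in the same order in each panel, MBD2-/- T-ALL highest and wild-type DP lowest, and the DP arrays of 1434687_at (7.5 to 24.2) all lie under background.

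RefSeq annotates 3 Zbtb38 starts in GRCm38.p6, and their promoters are shown because they differ widely in CG content while none of the 3 probe sets can be assigned to a start here. All are on the minus strand, 300 bases each, with CG in capitals; the first is at chr9:96731626-96731925, the second at chr9:96719801-96720100 and the third at chr9:96719396-96719695.
Zbtb38 upstream start: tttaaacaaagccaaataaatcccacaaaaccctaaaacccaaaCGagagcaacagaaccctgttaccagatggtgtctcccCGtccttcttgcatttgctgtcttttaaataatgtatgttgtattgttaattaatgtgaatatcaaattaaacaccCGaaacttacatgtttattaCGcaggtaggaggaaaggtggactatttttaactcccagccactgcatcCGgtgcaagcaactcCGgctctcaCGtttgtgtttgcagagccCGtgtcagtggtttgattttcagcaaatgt
Zbtb38 middle start: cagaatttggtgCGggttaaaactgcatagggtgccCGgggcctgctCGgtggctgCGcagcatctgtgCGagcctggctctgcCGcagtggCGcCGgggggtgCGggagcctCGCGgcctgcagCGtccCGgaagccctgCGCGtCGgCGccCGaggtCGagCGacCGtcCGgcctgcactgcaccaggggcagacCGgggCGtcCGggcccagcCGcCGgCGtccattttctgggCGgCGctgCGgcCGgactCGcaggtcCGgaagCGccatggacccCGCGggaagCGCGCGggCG
Zbtb38 downstream start: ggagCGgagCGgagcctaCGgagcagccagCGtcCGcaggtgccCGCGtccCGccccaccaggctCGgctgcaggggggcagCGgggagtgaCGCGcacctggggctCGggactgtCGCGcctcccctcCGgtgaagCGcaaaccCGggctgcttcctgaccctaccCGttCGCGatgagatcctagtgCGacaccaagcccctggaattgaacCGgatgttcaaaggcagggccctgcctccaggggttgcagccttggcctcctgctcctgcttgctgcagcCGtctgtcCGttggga
The upstream promoter holds 8 CG, close to the median of 7 over all promoters, the middle one 41, more than 96.5% of promoters, and the downstream one 25, more than 81.6%.

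Zbtb33 encodes Kaiso, which binds methylated CG pairs and also an unmethylated sequence, and its level did not pass in any comparison as fitted here. Probe set 1434022_at had 822.3, 974.8 and 1039.6 in MBD2-/- T-ALL, against 699.3, 691.9 and 992.9 in wild-type T-ALL. It had 1271.9, 968.4 and 846.2 in MBD2-/- DP cells, against 872.1, 977.5 and 1120.5 in wild-type DP cells. All 4 groups overlapped. The log2 difference between genotypes was 0.26 in T-ALL (interval −0.15 to 0.67, adjusted p = 0.425) and 0.04 in DP cells (interval −0.38 to 0.46). Between cell types it was −0.32 in wild type (adjusted p = 0.23, with 0.0442 in a fit blocked by poly-A set and 0.0558 with the replicate block) and −0.11 in MBD2-/- cells (adjusted p = 0.725). The 6 arrays with a Gapdh ratio over 2 had 968.4 to 1272 and the other 6 had 691.9 to 977.5, ranges that barely overlap. Zbtb33 lies on the X chromosome, and the T-ALL groups differ in Xist as given above.

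Mbd6, a PR-DUB partner, was measured by 1 probe set, 1418375_at. It had 209.2, 333.0 and 232.4 in MBD2-/- T-ALL, against 157.2, 170.3 and 144.0 in wild-type T-ALL. It had 231.5, 280.8 and 339.8 in MBD2-/- DP cells, against 386.1, 321.8 and 262.7 in wild-type DP cells. Wild-type T-ALL stood apart below every array of the other 3 groups, which overlapped each other. Mbd6 was lower in wild-type T-ALL than in wild-type DP by log2 −0.96 (SE 0.15, adjusted p = 0.00444), a call that passed without each array in turn, and gave −0.14 between the MBD2-/- groups (interval −0.62 to 0.34, adjusted p = 0.69). Between the T-ALL genotypes it was 0.64 (SE 0.18) with an adjusted p of 0.0658, which the replicate block brought to 0.023. The difference between the genotype effects in T-ALL and DP cells was 0.82 (interval 0.22 to 1.42, adjusted p = 0.0993). The pattern of 1 low group thus did not pass the test of the difference as fitted here. It passed in 2 of 24 alternative fits, among them the one with the Gapdh ratio as a covariate (0.84, adjusted p = 0.0455).

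The richer of the 2 Mbd6 promoters that RefSeq annotates (chr10:127288832-127289131, minus strand, GRCm38.p6) is shown for its CG density, with CG in capitals.
Mbd6 promoter: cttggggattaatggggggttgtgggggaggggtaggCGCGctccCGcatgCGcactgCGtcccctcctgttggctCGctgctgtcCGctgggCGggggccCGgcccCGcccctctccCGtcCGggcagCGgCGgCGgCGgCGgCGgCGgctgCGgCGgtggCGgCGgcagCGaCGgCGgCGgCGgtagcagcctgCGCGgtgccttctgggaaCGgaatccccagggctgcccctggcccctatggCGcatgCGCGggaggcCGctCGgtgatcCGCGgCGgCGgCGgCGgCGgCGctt
It holds 44 CG, more than 97.8% of promoters, and the other Mbd6 start has 28. The promoters of Mbd3, Mbd4 and Zbtb33 hold 22, 25 and 34 CG, and those at the Mbd5 starts 19 and 4. The sequence TCCTGCNA, the unmethylated site known for Kaiso, was searched on both strands and lies in 4.95% of all promoters and in 1 of the 11 promoters found for 7 member genes, that of Mbd3. Such a match describes the letters only.

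Mbd1 was read by 5 probe sets that did not move alike. The brightest, 1417968_a_at, had 1246, 1273.4 and 950.1 in MBD2-/- T-ALL, against 971.9, 909.4 and 825.3 in wild-type T-ALL. It had 743.6, 1009.2 and 1057.1 in MBD2-/- DP cells, against 1727.1, 1163.6 and 1338.7 in wild-type DP cells. The T-ALL genotypes overlapped (log2 0.34, adjusted p = 0.192), while all MBD2-/- DP arrays lay below all wild-type DP arrays (log2 −0.58, SE 0.19, adjusted p = 0.996). The difference between these genotype effects was 0.92 (SE 0.25, interval 0.37 to 1.48, adjusted p = 0.0458), the only call among the 20 member probe sets, 5.0%, where 8.9% of all probe sets were called. The adjusted p was 0.0722 with the replicate block and up to 0.106 with single arrays left out, and the call was lost without each of 9 of the 12 arrays. Wild-type T-ALL was lower than wild-type DP (log2 −0.62, adjusted p = 0.0296), whereas MBD2-/- T-ALL against MBD2-/- DP gave 0.30 (interval −0.12 to 0.73, adjusted p = 0.277).

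Probe set 1437061_at of Mbd1 had 422.3, 417.1 and 358.1 in MBD2-/- T-ALL, against 386.5, 271.2 and 275.5 in wild-type T-ALL. It had 455.7, 523.6 and 652.5 in MBD2-/- DP cells, against 677.8, 497.3 and 549.1 in wild-type DP cells. T-ALL lay below DP in both genotypes without overlap, with a call in wild type (log2 −0.86, SE 0.18, adjusted p = 0.0127) and none in MBD2-/- cells (−0.42, adjusted p = 0.0854). The probe sets 1430837_a_at, 1430838_x_at and 1453678_at come from the same cDNA record and were dim. The first had 39.2 to 48.9 in MBD2-/- T-ALL, 45.2 to 61.4 in wild-type T-ALL, 75.1 to 82.1 in MBD2-/- DP and 76.6 to 82.7 in wild-type DP cells. It was lower in T-ALL by log2 −0.67 in MBD2-/- cells (SE 0.11, adjusted p = 0.00356) and by −0.51 in wild type (SE 0.12, adjusted p = 0.0185).

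The related probe set 1430838_x_at gave −0.84 (adjusted p = 0.00415) and −0.46 (adjusted p = 0.0245) in the same comparisons. It had 35.2, 26.0 and 23.5 in MBD2-/- T-ALL, all under background, and 40.9, 33.9 and 33.6 in wild-type T-ALL. Its folds are therefore set in part by the added constant. The third, 1453678_at, stayed under background on all 12 arrays (9.5 to 35.2), and its called difference in MBD2-/- cells (−0.66, adjusted p = 0.0165) was lost without MBD2-/- T-ALL replicate 2 or MBD2-/- DP replicate 2 or 3. Each of the 4 wild-type calls of Mbd1 was lost without wild-type T-ALL replicate 2, with an adjusted p of up to 0.0929, and 3 of them also without other arrays. All 5 Mbd1 probe sets had a negative difference between T-ALL and DP cells in wild type (1453678_at gave −0.44, adjusted p = 0.0556), while in MBD2-/- cells the brightest one had a positive difference without a call. Mbd1 and Mbd2 both lie on chromosome 18 of GRCm38.p6, Mbd2 from 70568225 to 70629134 and Mbd1 from 74267605 to 74282737, with 9 protein-coding genes between them.

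Mbd4, the glycosylase gene, was not called in any comparison. Probe set 1449490_at had 234.2, 174.1 and 194.8 in MBD2-/- T-ALL, against 202.0, 201.8 and 213.4 in wild-type T-ALL. It had 205.1, 225.6 and 267.0 in MBD2-/- DP cells, against 224.7, 210.0 and 322.7 in wild-type DP cells. All groups overlapped. Over its 3 probe sets the genotype difference in T-ALL was −0.07 to 0.003, and the narrowest interval, that of 1441079_at, ran from −0.23 to 0.24. Probe set 1441079_at had 78.1 to 98.9 on all 12 arrays, and 1457708_at had 114.7 to 290.1. No Mbd4 probe set passed between cell types, where 1449490_at gave −0.25 in wild type (interval −0.65 to 0.14) and −0.20 in MBD2-/- cells (interval −0.55 to 0.15).

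Partners and relatives of these proteins were read from lists, each gene by its brightest single-gene probe set. The shares of all probe sets given beside the lists also cover dimmer probe sets. Of 10 other genes listed as readers of DNA methylation or relatives of the MBD and SRA families, 8 were tested. Baz2b, a bromodomain protein with an MBD-like domain, was higher in MBD2-/- than in wild-type T-ALL, 1 call of 8, where 12.3% of all probe sets were called. Baz2a (log2 0.43, adjusted p = 0.232) passed too with the replicate block, at 0.0414. Baz2b averaged 422.5 ± 31.4 in MBD2-/- T-ALL and 147.4 ± 15.8 in wild-type T-ALL (log2 1.43, SE 0.11, adjusted p = 0.000516), against 532.3 ± 24.1 in MBD2-/- DP cells and 571.8 ± 167 in wild-type DP cells (SD, n = 3 each). Like Zbtb4 and Mbd6, it was lowest in wild-type T-ALL, and here the effect of genotype differed between the cell types (1.49, SE 0.24, adjusted p = 0.00197). In wild type, Baz2b (−1.82), Baz2a (−1.48) and Uhrf2 (−1.18), an SRA-domain ubiquitin ligase, were lower in T-ALL than in DP cells, 3 of 8 beside 28.6% of all probe sets, and none of the 8 was higher. In MBD2-/- cells Baz2a (−1.05) and Uhrf2 (−0.80) were lower, 2 of 8 beside 27.4% of all, and each Uhrf2 call was lost without any of 5 single arrays. The list's median log2 difference was −0.06 between T-ALL genotypes and 0.09 between the wild-type groups.

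Of 14 partners of MBD2 and MBD3, all tested, 1 was higher and 1 lower in MBD2-/- T-ALL, beside 12.3% of all probe sets called, and 12 did not pass without the replicate block. With it Hdac1 passed as well (log2 −0.38, adjusted p = 0.0554 without the block and 0.0461 with it). The lower one was Prmt5, an arginine methyltransferase that binds MBD2, with 528.6 ± 48.1 in MBD2-/- T-ALL and 1004 ± 105 in wild-type T-ALL (log2 −0.90, SE 0.12, adjusted p = 0.00413), and the higher one was the NuRD subunit gene Mta3. None of the 14 passed between DP genotypes in limma, where 0.0113% of all probe sets did (1 had an unadjusted p under 0.05). Between cell types, 6 were higher and 1 lower (Gatad2b) in MBD2-/- T-ALL than in MBD2-/- DP, beside 14.0% and 13.4% of all probe sets, and 5 were higher and none lower in wild-type T-ALL than in wild-type DP, beside 14.3% and 14.4%. With the replicate number as a block, Gatad2b was lower there too (log2 −0.44, adjusted p = 0.0129), whereas its MBD2-/- call was lost with the block (adjusted p = 0.0563). Prmt5 (log2 1.54), its cofactor gene Wdr77 (1.54), the histone-binding Rbbp7 (1.04), Cdk2ap1 (0.89) and Mta1 (0.69) made up the 5 in wild type. In MBD2-/- cells Mta3 (2.82), Wdr77 (1.63), Prmt5 (1.05), Rbbp7 (0.80), Cdk2ap1 (0.71) and Mta1 (0.63) were higher. The list's median log2 difference was 0.22 in wild type and 0.28 in MBD2-/- cells, beside 0.02 and −0.02 over all probe sets. The Mta1 calls, Gatad2b and the MBD2-/- call of Cdk2ap1 were lost without at least 1 single array, and Rbbp7 lies on the X chromosome. For Mbd2 itself, 1417165_at gave log2 −0.46 between wild-type T-ALL and wild-type DP, without overlap and without a call (adjusted p = 0.0867, and 0.0107 with the block). The other Mbd2 probe set, 1425803_a_at, gave 0.22 with overlap (adjusted p = 0.873, and 0.31 with the block).

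The remaining lists held fewer tested genes. Of 5 genes of MBD4 and base excision, Xrcc1 was lower in MBD2-/- T-ALL (log2 −0.56, adjusted p = 0.0426, up to 0.124 with single arrays left out). In wild type Apex1, the endonuclease that follows the glycosylase, was higher in T-ALL than in DP cells, with 3445 ± 512 and 809.2 ± 273 (log2 2.11, adjusted p = 0.00113), as were Fadd and Lig3. In MBD2-/- cells Apex1 was higher by 1.66. Of 7 PR-DUB genes, Foxk1 and Foxk2 were higher in T-ALL than in DP cells in both genotypes and the X-linked Ogt was lower in wild type, and none passed between T-ALL genotypes (0 with an unadjusted p under 0.05), though Ogt did with the replicate block (log2 0.69, adjusted p = 0.0476). Of 3 MBD1 partners, Atf7ip was lower in wild-type T-ALL than in wild-type DP. Of 6 partners of the BTB zinc fingers, the corepressor genes Ctbp2 (−1.30) and Sin3b (−0.56) were lower in MBD2-/- T-ALL than in MBD2-/- DP. None passed between T-ALL genotypes without the replicate block, and Ctbp2 did with it (log2 −0.50, adjusted p = 0.0422). The calls of Fadd, Lig3, Foxk1, Ogt, Atf7ip and Sin3b were each lost without at least 1 single array. Of 6 genes for writing or erasing CG methylation, Dnmt3b and Tet2 were higher in MBD2-/- than in wild-type T-ALL and none was called in DP cells. Over the 7 lists, 6 of 48 genes were called between T-ALL genotypes, 12.5%, where 12.3% of all probe sets were, and 10 with the replicate block, where 19.2% were. Between DP genotypes limma called 0 of 48, where it called 0.0113% of all, and 4 of 48 had an unadjusted p under 0.05, where 4.32% of all did. Between cell types 16 of 48 were called in MBD2-/- cells, 33.3% beside 27.4% of all, and 18 of 48 in wild type, 37.5% beside 28.6%. In fits with 1 probe set per gene, as the lists were read, the shares called were higher. They were 16.3% between T-ALL genotypes, 29.6% between cell types in MBD2-/- cells and 34.0% in wild type. With the block 23 of 48 were called in wild type, where 38.8% of all were, the additional genes being Gatad2b, Cbx5 (adjusted p = 0.0105), Hdac3 (0.0348), Polb (0.0334) and Ctbp2 (0.0459). In MBD2-/- cells, where equal numbers were not treated as pairing, the block left 10 of 48 called, where 20.0% of all were.

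Across the 12 arrays, the genes with the most similar profile to each member were named by Pearson's r on log2 values, which describes these arrays only, since arrays of a group share their source and the Gapdh and poly-A differences. For Mbd2 1417165_at these were Gpr137 (0.903), Asb6 (0.899) and Bud13 (0.883). Bud13 had a mean of 90.3 in MBD2-/- T-ALL and 137.4 in wild-type T-ALL, and 106.7 in MBD2-/- DP cells and 132.8 in wild-type DP cells. Zbtb4 1429722_at was nearest to Zfp319 (0.982), Gm11944 (0.971) and Angptl1 (0.967). Zfp319 likewise had its lowest mean, 42.6, in wild-type T-ALL, beside 93.9 in MBD2-/- T-ALL. Zbtb38 1437650_at was nearest to Slc35a3 (0.959) and Decr1 (0.955), Mbd6 to Esyt2 (0.955), C330007P06Rik (0.951) and Golga4 (0.95), and Mbd3 to Ebp (0.968), Rrp36 (0.967) and Bckdhb (0.963). Mbd1 1417968_a_at was nearest to Trpv2 (0.929), Tmem229b (0.908) and Slc35e2 (0.906). Zbtb33 1434022_at was nearest to Mink1 (0.936), Angel2 (0.909) and Rap2c (0.905), and Mbd4 1449490_at to Gm13238 (0.9), Celf1 (0.866) and Nexn (0.864).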

How the data were processed

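Total RNA of 12 samples in 4 groups of 3 was labelled as biotin cRNA and hybridised to Affymetrix 430 2.0 arrays, per the labels. The deposited values are intensities per probe set on a linear scale, from 3.07 to 21620, which the authors had summarized; how they summarized and normalized them is not given in the sources used here. Medians of log2 intensity per array lay between 5.19 and 5.30, so no further normalization was applied, and no detection calls were used. Probe sets were named by the platform annotation (34945 of 45101 with 1 gene, 932 with several, 9160 with none, 64 controls). Groups come from the sample labels.

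Values were taken as log2(intensity + 16). Tests used limma 3.58.1 under R 4.3.3, with lmFit and plain eBayes, on the 35465 probe sets that exceeded their array's 25th percentile on at least 3 arrays. The 2 groups of a comparison were fitted alone, and the difference of genotype effects was tested with all 12 arrays fitted together, with Benjamini-Hochberg adjustment over all tested probe sets. The code was tested on simulated data. Members and lists were chosen with earlier results of these data known. All member probe sets are named, with up to 6 called genes of each list and the 3 genes nearest in profile to a member. A microRNA locus annotated as Mir425, among the 3 nearest to Zbtb38 1437650_at, was left out of the results. Promoters came from RefSeq (GRCm38.p6), none from chromosome 18. Plots used matplotlib 3.10.9 in Python 3.11.15.

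Equal replicate numbers were checked for pairing by correlating deviations from group means over all tested probe sets. They gave r of 0.408, 0.212 and 0.582 between T-ALL genotypes and 0.376, 0.439 and 0.563 between wild-type T-ALL and DP cells. Equal numbers were treated as pairing there, which the labels do not state. Most arrays of equal number in these comparisons also shared their side of the Gapdh and poly-A differences. Pairing and those differences cannot be told apart here. Arrays of a group correlated at 0.969 to 0.991. The alternatives tried were added constants of 1 and 64, quantile normalization, 75th-percentile centring, other filters, 1 probe set per gene, trend and robust fits, array weights, blocks for replicate number or poly-A set, the Gapdh ratio as a covariate, all 12 arrays in each 2-group fit and leaving out each array in turn. Values within each poly-A set were added after the data were seen.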

Additional observations from a re-analysis of the deposited data

Results flagged for a closer look

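The genotype effect on Mbd1 1417968_a_at differed between the cell types by a log2 value of 0.923 (T-ALL effect minus DP effect, SE 0.25, adjusted p = 0.0458 in limma's fit of all 12 arrays). The test of this difference itself singled it out. Its intensities averaged 1157 ± 179 in MBD2-/- T-ALL and 902.2 ± 73.6 in wild-type T-ALL, and 936.7 ± 169 in MBD2-/- DP cells and 1410 ± 288 in wild-type DP cells (SD, n = 3 each). The call passed in 8 of its 24 alternative fits. The 2 other Mbd1 probe sets above background on all 12 arrays gave 0.44 (1437061_at, adjusted p = 0.375) and −0.16 (1430837_a_at, adjusted p = 0.64). The dimmer ones gave −0.38 (1430838_x_at, adjusted p = 0.267) and −0.22 (1453678_at, adjusted p = 0.654). Groups of 3 arrays were not tested for single outlying arrays.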

How the results depend on the processing

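Of 1930 single values under the alternatives listed above, 1817 kept their side of the threshold, 62 lost a call, 51 gained one and 0 turned a called value round. Of the 1817, 86 changed sign with no call on either side. The 23 calls kept their sign in all 428 of their fits and passed in 366, and 10 of the 23 passed in every fit. Counts of called member probe sets moved as follows, with the share called of all probe sets tested in the same fit in parentheses. Between T-ALL genotypes 4 were called (12.3%), against 2 with an added constant of 64 (10.3%), 2 of 8 with 1 probe set per gene (16.3%), 7 with the replicate block (19.2%), and 2 to 5 with single arrays left out, 2 being without wild-type T-ALL replicate 2 (6.37%). Between DP genotypes 1 was called (0.0113%), against 2 with array weights (0.0536%), 0 with the replicate block (0.0%) and 0 with the poly-A block (0.0%). The count was 0 to 2 with single arrays left out, 0 being without MBD2-/- replicate 1 or 3 (0.0%). Equal replicate numbers gave r of −0.493, 0.086 and −0.445 there. Between wild-type T-ALL and DP cells 10 were called (28.6%), against 4 of 8 with 1 probe set per gene (34.0%), 13 with the block (38.8%) and 5 to 10 with single arrays left out, 5 being without wild-type T-ALL replicate 2 (19.5%) or 3 (25.2%) and 6 without wild-type DP replicate 1 (22.7%). Between MBD2-/- T-ALL and DP cells 7 were called (27.4%), against 2 of 8 with 1 probe set per gene (29.6%), 6 with the block (20.0%) and 5 to 8 with single arrays left out. For the difference of genotype effects 1 was called (8.9%), against 0 in limma with centring on the 75th percentile, no filter, an added constant of 1 or of 64, trend and robust, the replicate block or the poly-A block (6.57% to 11.3%), 2 with array weights (13.9%), 2 with the Gapdh covariate (13.7%), and 0 to 2 with single arrays left out. With 1 probe set per gene fewer members are tested; the cause of the other changes was not tested. Within each poly-A set, an alternative chosen after seeing the data, all 36 differences of called probe sets that could be formed kept their sign. The compared groups did not overlap for any of these calls, so no other outcome was possible. For the wild-type comparison of cell types, the set without poly-A signal held 1 array per group. No detection calls were used, so differences near or under an intensity of 35.3 are limited by background.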
